A study of Arabidopsis thaliana with 60 samples.

Results

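WRKY18 (AT4G31800), WRKY40 (AT1G80840) and WRKY60 (AT2G25000) make up group IIa of the WRKY transcription factors of Arabidopsis thaliana. The genes were taken by their identifiers from a read count table of 25036 genes, so they are 3 of 25036, and 3 of 3 were among the 16763 genes with enough counts to be tested. Their transcripts were followed in leaves of 4-week-old plants across 20 combinations of treatment and time, with 3 libraries in each.

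WRKY proteins bind DNA through a zinc-finger domain that recognises the W box, a short element with TTGAC at its core. The group IIa proteins also carry a leucine zipper, through which they pair with themselves and with each other. In Arabidopsis, plants that lack WRKY18 and WRKY40 are more resistant to powdery mildew, and the 3 factors are known for roles in defence signalling and in the response to abscisic acid. The WRKY18 and WRKY40 proteins have been found to bind the WRKY60 promoter.

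All groups shared 1 genotype, the Col-0 quadruple mutant dde2 ein2 pad4 sid2 with an estradiol-inducible AvrRpt2 transgene (Ed-AvrRpt2), and no wild-type leaves were analysed here. The mutations remove jasmonate synthesis (dde2), ethylene signalling (ein2), the defence regulator PAD4 (pad4) and pathogen-induced salicylic acid synthesis (sid2). Leaves were infiltrated 3 to 4 h after subjective dawn with 0.1% ethanol (Mock), with 1 µM flg22, with 10 µM estradiol in 0.1% ethanol (Ed), or with 1 µM flg22 and 10 µM estradiol together in 0.1% ethanol (flg22+Ed). flg22 is a flagellin peptide that the receptor kinase FLS2 senses and that elicits pattern-triggered immunity. Estradiol induces AvrRpt2, a bacterial protease that the resistance protein RPS2 senses through RIN4, which elicits effector-triggered immunity. Ethanol is not listed for the flg22 solution, so ethanol differs as well wherever flg22 alone is compared. Leaves were collected after 60, 120, 180 or 300 min, and untouched leaves were collected at 0 min under each of the 4 treatment labels, giving 12 untouched libraries. Each library pooled leaves from 2 plants, and the 3 libraries of a group came from 3 independent experiments. Total counts were 1458920 to 4673355 per library, so 3 counts, the limit that a count of 0 allows, correspond to 0.642 to 2.06 CPM, the usual count scaled to library size, which covers counting error only.

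The 4 leaf mesophyll markers were abundant in every library, with a summed level of 7260 to 42200 CPM, and the 2 flower markers summed to 0 to 6.39 CPM. In 4 libraries of experiment 2, those labelled Mock at 0, 60 and 300 min and flg22 at 0 min, 13 clock genes stood apart from libraries with the same label. By these clock genes 0 of the 4 were most like their own class of untouched or Mock leaves, while 18 of the other 20 were. All labels were kept as deposited. The members' changes and the counts over gene lists against Mock at 60 and 300 min, which use these libraries, are also given without them.

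To show the regulatory sequence of each gene, the 80-base stretch of its upstream region with the densest W-box cores is printed 5′ to 3′ on the gene's strand, which is the plus strand for all 3 genes. The sequences come from the RefSeq genome TAIR10.1, and TTGAC on the gene's strand, or GTCAA where the core lies on the other strand, is in capitals.
WRKY18: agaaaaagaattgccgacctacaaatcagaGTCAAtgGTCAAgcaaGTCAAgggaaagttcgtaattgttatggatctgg
WRKY40: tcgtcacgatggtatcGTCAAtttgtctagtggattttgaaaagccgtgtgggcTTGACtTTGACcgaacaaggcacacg
WRKY60: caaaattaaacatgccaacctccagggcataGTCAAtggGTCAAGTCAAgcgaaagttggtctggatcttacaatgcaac
The stretches lie at chr4:15382012-15382091, chr1:30382694-30382773 and chr2:10628995-10629074. The genes themselves span chr4:15382777-15385100 (WRKY18, 3 annotated transcripts), chr1:30383561-30385499 (WRKY40, 1 transcript) and chr2:10629662-10631413 (WRKY60, 4 transcripts), and 0 annotated exons fall in the printed stretches.

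Within 1000 bases upstream of the gene start, WRKY18 held 3 cores, at 735, 728 and 719 bases. WRKY60 held 4, at 636, 628, 623 and 371 bases, and its 3 distal cores lay on 1 strand in a tight group, as did the 3 of WRKY18. WRKY40 held 7 cores, spread from 895 to 160 bases and on both strands. Cores are common, since 40.1% of 27443 promoters of this length held at least 3, 20.8% held at least 4 and 1.45% held at least 7. A group of 3 cores within 25 bases, a span chosen after the WRKY18 and WRKY60 sequences had been seen, was present in 57 of the 27443 promoters (0.208%), those of WRKY18 and WRKY60 included and that of WRKY40 not. Counting only TTGACC or TTGACT left 3, 2 and 3 matches for WRKY18, WRKY40 and WRKY60. These are letter matches, and binding was not measured.

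**Figure D1:**
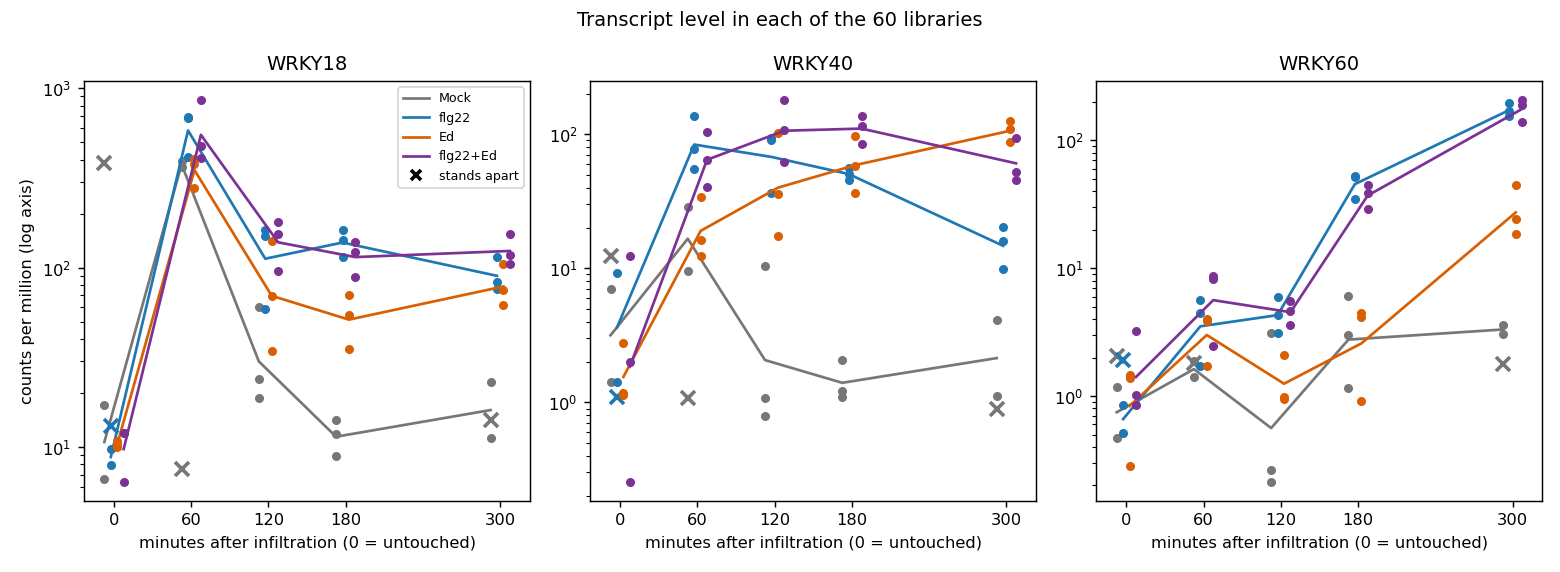
Level of WRKY18, WRKY40 and WRKY60 in each of the 60 libraries, in CPM on a log axis, against minutes after infiltration (0 is untouched); dots are libraries, crosses are the 4 libraries that stand apart, and lines join geometric means without those 4. By group mean, WRKY18 was highest at 60 min under every treatment, and WRKY40 at 60 min after flg22 and at 300 min after Ed. In experiments 1 and 2 WRKY40 after flg22 was higher at 120 than at 60 min. WRKY60 reached 139 to 206 CPM at 300 min with flg22 in the solution.

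WRKY18 was higher in Mock-infiltrated leaves at 60 min than in untouched leaves, which were collected at 0 min, so infiltration, ethanol and the time of collection cannot be told apart. In 10 untouched libraries, leaving out the 2 that stand apart, its level was 6.4 to 17.1 CPM, with a mean of 10.3 ± 3.1 (SD, n = 10). At 60 min after Mock infiltration it was 362 and 391 CPM in experiments 1 and 3, far above every one of those untouched libraries. The libraries of experiment 2 ran the other way, with 384 CPM in the one labelled untouched Mock and 7.56 CPM in the one labelled Mock at 60 min. Over all libraries the log2 fold change of Mock against untouched leaves was 3.69 ± 0.51 (adjusted p = 7.51e-06, edgeR quasi-likelihood F test), where the error is worked back from the F statistic, and without the 4 libraries it was 5.18 ± 0.32. WRKY18 was the only one of the 3 genes to pass in this comparison over all libraries, where 9.46% of tested genes passed in either direction. The call was lost in 3 of 27 alternative settings, with adjusted p from 1.44e-16 to 0.173.

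The Mock response of WRKY18 was short. Its level in Mock leaves was 23.9, 18.8 and 60 CPM at 120 min, then 11.8, 8.85 and 14.2 CPM at 180 min, which lies inside the untouched range. WRKY40 in Mock leaves at 60 min was 9.58, 1.08 and 28.9 CPM, against 0.256 to 12.4 CPM in the 12 untouched libraries, so the groups overlapped. Its log2 fold change was 1.77 ± 0.63 (adjusted p = 0.0698), and it passed at 2.4 ± 0.67 without the 4 libraries (adjusted p = 0.00406 to 0.934 over 27 settings). WRKY60 stayed between 0.214 and 6.02 CPM in every Mock library and did not pass against untouched leaves at 60, 120, 180 or 300 min. Without the 4 libraries, 1 of the 3 genes passed at 120 min (WRKY18, 1.7 ± 0.33) and 1 at 180 min (WRKY60, 1.54 ± 0.56), where 35.5% and 28.2% of genes passed in either direction. Since leaves were measured in bulk, more transcript per cell and more cells that express a gene cannot be told apart.

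Under each elicitor WRKY18 was highest at 60 min, the earliest time collected after infiltration. It was 694, 412 and 686 CPM after flg22, 378, 279 and 405 CPM after Ed, and 476, 858 and 406 CPM after flg22+Ed. Every flg22 library lay above every Mock library at that time, but the 2 higher Mock libraries came close, and WRKY18 did not pass against Mock under any of the 3 elicitations at 60 min. The log2 fold changes were 1.24 ± 0.74 for flg22 (adjusted p = 0.318), 0.48 ± 0.73 for Ed (adjusted p = 0.909) and 1.19 ± 0.74 for flg22+Ed (adjusted p = 0.377). Without the 4 libraries they were 0.69, -0.09 and 0.64, so the direction for Ed turned.

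At 120 min WRKY18 was 149, 161 and 58.6 CPM after flg22, 69.7, 34.3 and 141 CPM after Ed, and 154, 95.9 and 179 CPM with flg22+Ed. The flg22 and Ed libraries overlapped with Mock, and those with flg22+Ed did not. It did not pass against Mock for flg22 (1.87 ± 0.77, adjusted p = 0.118), Ed (1.28 ± 0.76, adjusted p = 1) or flg22+Ed (2.09 ± 0.78, adjusted p = 0.0618). Without the 4 libraries it passed for flg22 (1.88 ± 0.41, adjusted p = 0.0011) and flg22+Ed (2.09 ± 0.41, adjusted p = 0.000258), and for flg22+Ed also with DESeq2 (adjusted p = 0.0287). Every elicited library of 180 min lay above every Mock library of that time. WRKY18 was then 142, 162 and 114 CPM after flg22 and 122, 88.9 and 138 CPM after flg22+Ed, against at most 14.2 CPM in Mock. It rose by 3.6 ± 0.84 on the log2 scale with flg22 (adjusted p = 0.00127) and by 3.34 ± 0.83 with flg22+Ed (adjusted p = 0.00166), in 3 of 3 experiments each. With Ed it was 70.7, 54.4 and 35 CPM, above all Mock libraries, and the log2 fold change of 2.22 ± 0.81 did not pass (adjusted p = 0.151) but did without the 4 libraries, at 2.21 ± 0.44 (adjusted p = 0.000505 to 1 over 18 settings).

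At 300 min WRKY18 had risen under all 3 elicitations. The levels were 83, 115 and 76.2 CPM after flg22, 105, 74.5 and 61.7 CPM after Ed, and 105, 153 and 118 CPM after flg22+Ed, against 11.2, 14.2 and 23 CPM in Mock, with no overlap. Log2 fold changes were 2.52 ± 0.8 for flg22 (adjusted p = 0.0108), 2.34 ± 0.8 for Ed (adjusted p = 0.0276) and 2.98 ± 0.82 for flg22+Ed (adjusted p = 0.00176). The flg22 call was lost without Mock replicate 1 (adjusted p = 0.0519). The Ed call was lost without Mock replicate 1 (adjusted p = 0.0997), Mock replicate 2 (adjusted p = 0.0971) or Ed replicate 1 (adjusted p = 0.108), and with limma-voom (adjusted p = 0.0566), and the range was 0.000841 to 0.335 over 18 settings. The changes were 2.5, 2.27 and 2.92 without the 4 libraries, and all 3 passed.

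The decline of WRKY18 from 60 to 120 min passed for flg22, which fell by 2.28 on the log2 scale with an error of 0.77 (adjusted p = 0.0477, 10.4% of tested genes called in either direction). That call was lost when any 1 of its 6 libraries was left out (adjusted p = 0.0559 to 0.175), while without the 4 libraries the change was -2.29 ± 0.41 and passed. For Ed and flg22+Ed the same step was -2.11 ± 0.76 and -2.02 ± 0.76 (adjusted p = 0.0812 and 0.073), and both passed without the 4 libraries, at -2.13 ± 0.4 and -2.03 ± 0.4.

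**Figure D2:**
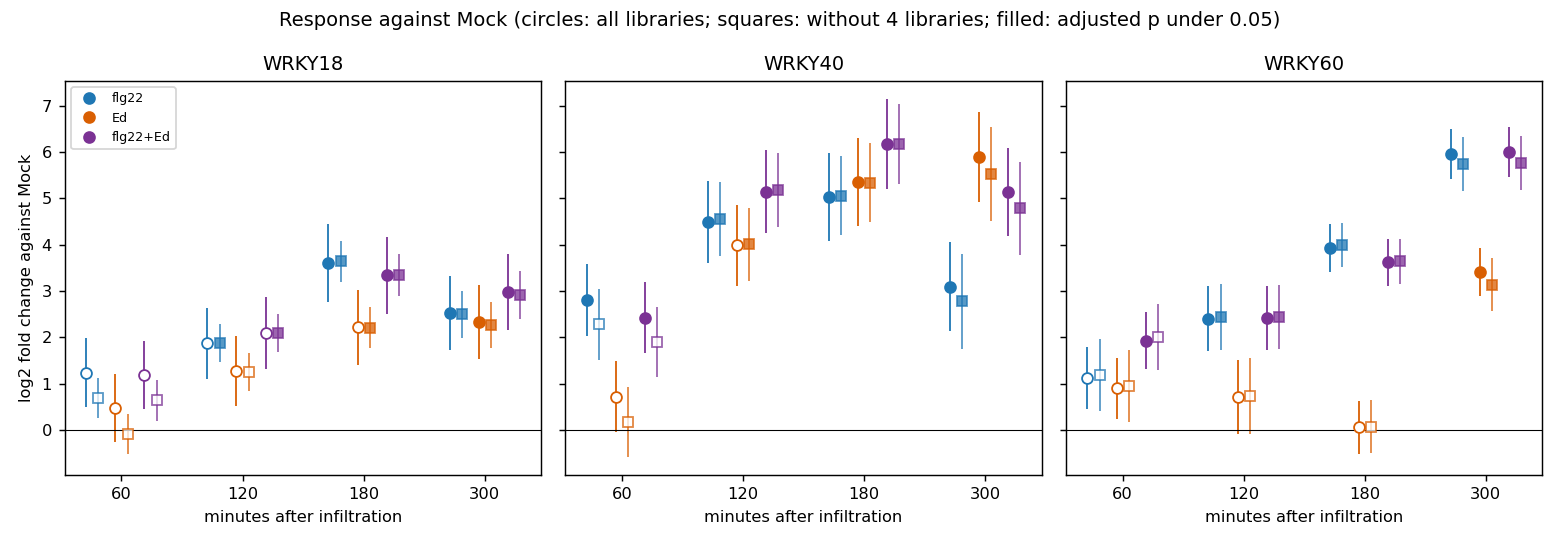
Log2 fold change against Mock (vertical axis) of WRKY18, WRKY40 and WRKY60 at 60, 120, 180 and 300 min after flg22, Ed or flg22+Ed; circles use all libraries, squares leave out the 4 libraries, bars are the error worked back from the F statistic, and filled symbols passed an adjusted p of 0.05. WRKY40 had passed after flg22 at all 4 times with all libraries, while WRKY60 after Ed passed at 300 min and at no earlier time.

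By group mean, WRKY40 was highest at 60 min after flg22 and at 300 min after Ed, but this did not hold in every experiment. In experiments 1 and 2 WRKY40 after flg22 was higher at 120 than at 60 min. The log2 step from 60 to 120 min after flg22 was -0.27 and did not pass. In experiment 3 WRKY40 after Ed was highest at 120 min. After flg22 it was 77.5, 55.2 and 138 CPM at 60 min, 94.2, 90.8 and 36.5 CPM at 120 min, 45.4, 56 and 50.8 CPM at 180 min, and 16, 20.2 and 9.89 CPM at 300 min. The level at 300 min was thus below every flg22 library of 60 to 180 min, although still above the Mock libraries of 1.12, 0.886 and 4.09 CPM. The step from 180 to 300 min was -1.72 ± 0.73 and did not pass (adjusted p = 0.269). After Ed the order of the group means ran the other way, with 16.3, 12.4 and 34.1 CPM at 60 min, 35.6, 17.4 and 103 CPM at 120 min, 97.2, 57.8 and 36.4 CPM at 180 min, and 125, 110 and 87 CPM at 300 min. Single steps in time after Ed did not pass for WRKY40.

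Against Mock, WRKY40 rose after flg22 at all 4 times over all libraries. The log2 fold changes were 2.81 ± 0.78 at 60 min (adjusted p = 0.0154), 4.49 ± 0.89 at 120 min (adjusted p = 0.00049), 5.03 ± 0.95 at 180 min (adjusted p = 8.14e-05) and lastly 3.09 ± 0.96 at 300 min (adjusted p = 0.00914). It was the only member called higher at 60 min, where 6.45% of tested genes were called higher. At 120 min 2 of the 3 members, WRKY40 and WRKY60, were called higher, against 7.43% of tested genes. At 180 min and at 300 min 3 of 3 members were called higher, against 14% and 19.2% of tested genes. The call at 60 min was lost without Mock replicate 1 (adjusted p = 0.0585), Mock replicate 2 (adjusted p = 0.145) or flg22 replicate 3 (adjusted p = 0.0841), and without the 4 libraries, where the change was 2.28 ± 0.77 (adjusted p = 0.000941 to 0.202 over 18 settings). The call at 300 min was lost without Mock replicate 2 (adjusted p = 0.0527) and held without the 4 libraries at 2.78 ± 1.02. Without the whole of experiment 1 the calls at 120 and 300 min were lost (adjusted p = 0.198 and 0.133), and without experiment 2 that at 300 min (adjusted p = 0.0749).

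After Ed, WRKY40 did not pass at 60 min (0.72 ± 0.77, adjusted p = 0.889), nor did the other two genes, where 0.00597% of tested genes were called higher. At 120 min the 3 Ed libraries lay above the 3 Mock libraries of 0.796, 1.07 and 10.4 CPM, and the log2 fold change of 3.99 ± 0.88 missed the threshold (adjusted p = 0.0515, and 0.00448 to 1 over 18 settings), as 0.0835% of tested genes were called higher there. It passed without the 4 libraries, without Ed replicate 2, without Mock replicate 3 (5.73) and with the experiment as a block (3.91, adjusted p = 0.0233). At 180 min WRKY40 rose by 5.36 ± 0.95 (adjusted p = 0.000176), the only member called among 4.03% of tested genes called higher, a call lost without experiment 1 (adjusted p = 0.18). At 300 min it rose by 5.89 ± 0.97 (adjusted p = 9.01e-06), and 3 of 3 members were called higher, against 14.7% of tested genes. The rise at 300 min was 5.53 ± 1.01 without the 4 libraries, and it passed.

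With flg22+Ed, WRKY40 was high from 60 to 300 min, at 40.6, 104 and 63.9 CPM, then 108, 61.9 and 180 CPM, then 116, 85.2 and 136 CPM, and then 52.6, 93.7 and 45.5 CPM. Every one of these libraries lay above every Mock library of its time. Log2 fold changes were 2.43 ± 0.77 at 60 min (adjusted p = 0.0453), 5.15 ± 0.9 at 120 min (adjusted p = 7.81e-05), 6.18 ± 0.97 at 180 min (adjusted p = 2.43e-06) and lastly 5.14 ± 0.96 at 300 min (adjusted p = 1.28e-05). Members called higher numbered 2, 2, 3 and 3 of 3 at these times, against 4.75%, 9.97%, 18% and 27.9% of tested genes. At 60 min the call of WRKY40 was lost without the 4 libraries (1.9 ± 0.76, against 4.79 ± 1 at 300 min, which passed), without Mock replicate 1 or 2 and without flg22+Ed replicate 2 or 3 (adjusted p = 0.0017 to 0.543 over 18 settings).

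After flg22 and with flg22+Ed, WRKY60 was the last of the 3 to reach its highest group mean. In the 12 untouched libraries it was 0.286 to 3.2 CPM, with a median of 1.1 CPM. After flg22 it was 4.48, 1.72 and 5.61 CPM at 60 min and 5.98, 4.27 and 3.1 CPM at 120 min, which overlapped with Mock at both times. It then reached 34.9, 51.4 and 52.1 CPM at 180 min and 156, 195 and 168 CPM at 300 min, each time above every earlier flg22 library. The rise from 120 to 180 min was 3.33 ± 0.48 (adjusted p = 9.87e-05, 0.632% of tested genes called higher) and that from 180 to 300 min 1.91 ± 0.41 (adjusted p = 0.0098, 0.787% called higher), and WRKY60 was the only one of the 3 genes to rise at either step. The later step did not pass without flg22 replicate 1 at 180 min (1.73, adjusted p = 0.0684, and 0.000143 to 0.251 over 18 settings).

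The course of WRKY60 with flg22+Ed was close to that with flg22 alone. It was 8.21, 8.73 and 2.48 CPM at 60 min, 5.5, 3.62 and 4.66 CPM at 120 min, 29.1, 44.8 and 38.7 CPM at 180 min and 206, 190 and 139 CPM at 300 min. At 180 and 300 min these libraries overlapped with those after flg22 alone, and the log2 differences were -0.31 ± 0.41 and 0.04 ± 0.39, with adjusted p = 1 and 0.964. Its steps from 120 to 180 min and from 180 to 300 min were 3 ± 0.48 (adjusted p = 0.000279, 1.01% called higher) and 2.26 ± 0.42 (adjusted p = 0.000179, 5.95% called higher).

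After Ed alone WRKY60 was still low at 180 min, with 4.18, 4.45 and 0.921 CPM against 1.16, 3.02 and 6.02 CPM in Mock. The log2 fold change there was 0.06 ± 0.57 (adjusted p = 1). By 300 min it had reached 44.9, 18.5 and 24.4 CPM, above all Mock libraries of 3.07, 1.77 and 3.58 CPM and below all 6 libraries with flg22. That step from 180 to 300 min was 3.21 ± 0.49 (adjusted p = 5.39e-05), again with WRKY60 as the only member called among 4.21% of tested genes called higher.

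Against Mock, the log2 fold change of WRKY60 after flg22 was 1.13 ± 0.67 at 60 min (adjusted p = 0.316), 2.4 ± 0.7 at 120 min (adjusted p = 0.0201), 3.93 ± 0.51 at 180 min (adjusted p = 1.1e-07) and lastly 5.97 ± 0.54 at 300 min (adjusted p = 1.21e-11). Among all 16763 tested genes the last of these ranked 243 by size of rise. With flg22+Ed it was 1.93 ± 0.62 (adjusted p = 0.0469), 2.42 ± 0.7 (adjusted p = 0.0142), 3.62 ± 0.51 (adjusted p = 4.2e-07) and 6.01 ± 0.54 (adjusted p = 4.15e-12) at the same times, and with Ed 3.41 ± 0.52 at 300 min (adjusted p = 2.96e-06). The changes at 300 min without the 4 libraries were 5.75 for flg22, 5.76 for flg22+Ed and 3.14 for Ed, and all 3 passed. The early calls rest on few counts, since the 3 Mock libraries at 120 min held 8 WRKY60 counts in all. The flg22 call at 120 min was lost without Mock replicate 1, Mock replicate 2 or flg22 replicate 1 (adjusted p = 0.176, 0.212 and 0.124). The flg22+Ed call at 120 min was lost without Mock replicate 1, Mock replicate 2 or flg22+Ed replicate 3 (adjusted p = 0.12, 0.155 and 0.0523). The flg22+Ed call at 60 min was lost without any of 5 of its 6 libraries (adjusted p = 0.0615 to 0.19), the exception being flg22+Ed replicate 3, and without the 4 libraries, at 2.01 ± 0.71.

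At 300 min all 3 WRKY genes lay above Mock under each treatment. The 4 leaf mesophyll markers, genes of photosynthesis, moved in the opposite direction. Their summed level was 32200 to 34600 CPM in Mock, 14900 to 22100 CPM after flg22, 22900 to 25400 CPM after Ed and 7260 to 10900 CPM after flg22+Ed, and 4, 2 and 4 of the 4 were called lower with flg22, Ed and flg22+Ed, against 20.9%, 9.46% and 30.5% of tested genes. The counts were 4, 1 and 4 without the 4 libraries. The summed level of the 3 epidermis markers was 243 to 395 CPM in Mock, 234 to 282 CPM after flg22, 105 to 184 CPM after Ed and 141 to 177 CPM with flg22+Ed, with 1, 2 and 2 of the 3 called lower (1, 1 and 2 without the 4 libraries). CER1, a wax synthesis gene of the epidermis, was lower under all 3 treatments, at -2.44, -1.89 and -2.66 on the log2 scale. FDH, another of the 3, went the other way after flg22, at 0.51 (adjusted p = 0.0657). Without the 4 libraries FDH was called higher there (0.67, adjusted p = 0.0203). Of the 2 root markers tested, SHR was lower with flg22+Ed (-1.34, adjusted p = 0.00387), as was 1 of 3 phloem markers, and 1 of 4 guard cell markers was higher after flg22 and 0 without the 4 libraries. A different guard cell marker, FAMA, was called lower with flg22+Ed without the 4 libraries (-1.06, adjusted p = 0.0427). The part of these markers in the WRKY results was not tested.

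WRKY40 and WRKY60 therefore differed in which single elicitor gave the higher level at 300 min. Ed against flg22 gave a log2 change of 2.8 ± 0.75 for WRKY40 (adjusted p = 0.00639) and of -2.56 ± 0.42 for WRKY60 (adjusted p = 1.52e-05), each in 3 of 3 experiments and without overlap between groups. The WRKY40 call was lost without experiment 1 (adjusted p = 0.114). Among tested genes 9.91% were called higher and 7.5% lower in this comparison. WRKY18 did not pass there (-0.19 ± 0.74, adjusted p = 0.907). At 180 min WRKY60 was already lower with Ed than with flg22 (-3.87 ± 0.5, adjusted p = 1.24e-07, 7.3% of tested genes called lower), whereas the WRKY40 libraries overlapped (0.33 ± 0.7, adjusted p = 0.836). At 60 min the log2 change of WRKY40 with Ed against flg22 was -2.09 ± 0.74 and did not pass (adjusted p = 0.123), and it passed without the 4 libraries at -2.11 ± 0.64 (adjusted p = 0.0214 to 0.747 over 18 settings). At 120 min it was -0.51 ± 0.7 (adjusted p = 0.722), and the libraries overlapped.

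The contrast between the pair can be read within each library, where the scaling of the library largely cancels. WRKY60 minus WRKY40 in log2 CPM at 300 min was 3.24, 3.24 and 4 after flg22 and -1.46, -2.54 and -1.81 after Ed. All flg22 values were positive and all Ed values negative, and the means, 3.49 ± 0.44 and -1.94 ± 0.55 (SD, n = 3), differed by 5.43. At 180 min they were -0.15 ± 0.21 and -4.17 ± 0.56 (SD, n = 3), a difference of 4.02. The exact two-sided permutation test gave p = 0.1 at both times, the smallest that 3 libraries against 3 allow, so it cannot pass 0.05. At 300 min this p was fixed by the levels above, where both genes separated the treatments in opposite directions, and it adds no support. Only the change of this difference between treatments can be read, since the yield of tags per transcript was not measured for either gene.

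The next comparisons ask what one elicitor adds to the other. When flg22 was added to Ed, WRKY60 was higher by 3.56 ± 0.5 at 180 min (adjusted p = 8.18e-07) and by 2.6 ± 0.43 at 300 min (adjusted p = 5.93e-06) on the log2 scale, in 3 of 3 experiments at each time. It was the only member called at either time, among 9.69% and 14.6% of tested genes called higher. WRKY18 at 180 min was 1.13 ± 0.75 (adjusted p = 0.329) and passed without the 4 libraries at 1.14 ± 0.4 (adjusted p = 0.034 to 0.728 over 18 settings).

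When Ed was added to flg22, 0 of 3 members passed at 60, 120, 180 or 300 min over all libraries, where 0%, 0.00597%, 0.483% and 14% of tested genes were called in either direction. The nearest was WRKY40 at 300 min, at 52.6, 93.7 and 45.5 CPM with flg22+Ed against 16, 20.2 and 9.89 CPM with flg22. These groups did not overlap, and the log2 difference was 2.05 ± 0.74 (adjusted p = 0.0546, and 0.00161 to 0.344 over 18 settings). It passed without the 4 libraries (2.01 ± 0.64) and with the experiment as a block (2.04, adjusted p = 0.0326). Of these 12 edgeR tests 1 had an unadjusted p under 0.05, that of WRKY40 at 300 min. After adjustment 0 of the 12 passed with DESeq2 and 1, the same gene and time, with limma-voom.

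The interaction on the log2 scale asks whether the effect of flg22 with Ed differs from its effect without Ed. For WRKY60 at 300 min flg22 raised the level by 5.97 against Mock and by 2.6 on top of Ed, and the difference was -3.36 ± 0.66 (adjusted p = 0.00307), with -3.24, -3.05 and -2.86 in the 3 experiments. It was the 1 member called, where 1.43% of tested genes had a lower interaction at 300 min, and without the 4 libraries it was -3.13 ± 0.67. For WRKY40 at 300 min the difference was -3.85 ± 1.2, with -4.52, -4.05 and -2.09 in the 3 experiments, and it missed the threshold (adjusted p = 0.0971, and 0.00195 to 0.832 over 24 settings) but passed with the experiment as a block (-3.94, adjusted p = 0.0486). WRKY18 gave -1.88 ± 1.08 at 300 min (adjusted p = 0.541). At 180 min WRKY40 gave -4.21 ± 1.17 (adjusted p = 0.234) and WRKY18 -2.47 ± 1.09 (adjusted p = 1), which passed without the 4 libraries at -2.5 ± 0.58 (0.313% of genes called lower there, 0.00597% over all libraries).

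On the linear scale the responses to the single elicitors can be summed within each experiment and set beside the response to flg22+Ed. WRKY60 at 300 min exceeded Mock by 203, 188 and 135 CPM with flg22+Ed, where the sums of the single responses were 195, 210 and 185 CPM. The differences of 7.53, -22.1 and -49.9 CPM had no common sign, although the log2 interaction at that time was negative in every experiment. WRKY40 at 300 min exceeded Mock by 51.5, 92.8 and 41.4 CPM with flg22+Ed, below the sums of 138, 129 and 88.7 CPM in 3 of 3 experiments. WRKY60 at 180 min was also below its sums in 3 of 3 experiments, by -8.81, -8.02 and -8.34 CPM. The differences for WRKY18 changed sign between experiments at each of the 4 times.

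**Figure D3:**
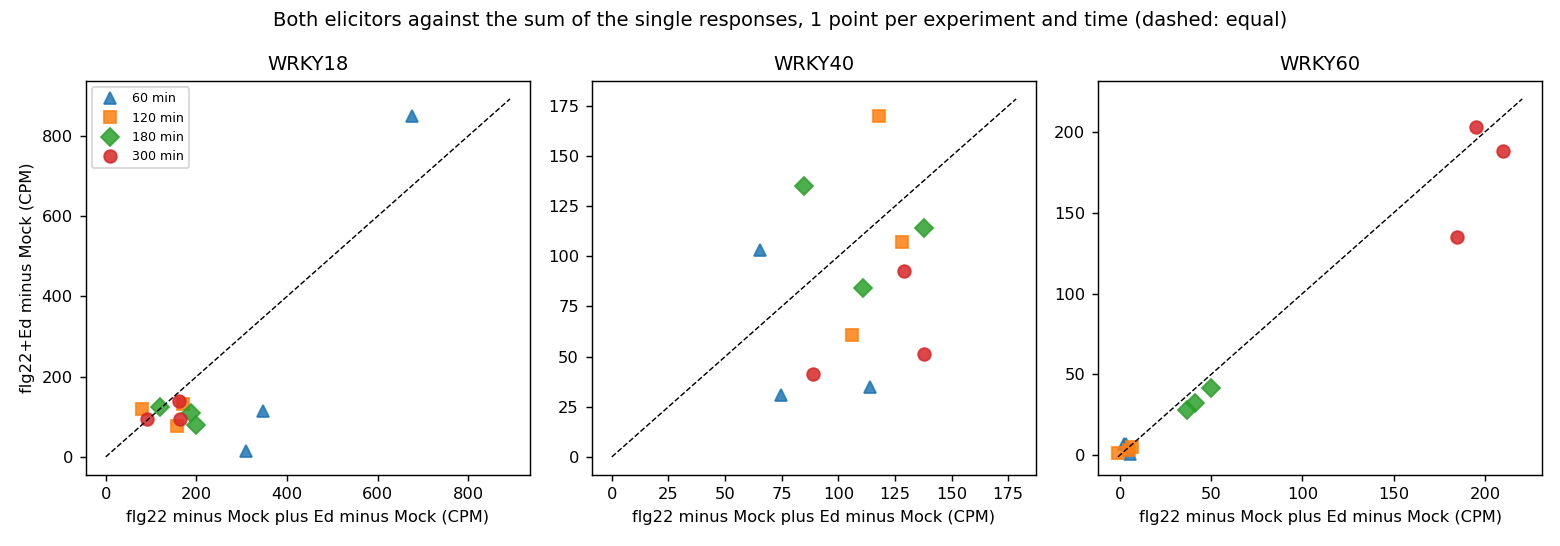
Excess over Mock with flg22+Ed (vertical axis, CPM) against the sum of the excesses with flg22 and with Ed (horizontal axis, CPM) for WRKY18, WRKY40 and WRKY60, with 1 point per experiment and time; the dashed line marks equal values. WRKY40 at 300 min lies below the line in all 3 experiments, and WRKY60 at 300 min lies on either side of it.

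Ordered by mean level over the 20 groups, WRKY18 was highest after flg22 at 60 min (598 ± 160 CPM, SD, n = 3) and after flg22+Ed at 60 min (580 ± 243 CPM), whose libraries overlapped. WRKY40 was highest with flg22+Ed at 120 min (117 ± 59.6 CPM), flg22+Ed at 180 min (112 ± 25.6 CPM) and Ed at 300 min (107 ± 19 CPM), whose libraries overlapped. WRKY60 was highest with flg22+Ed at 300 min (178 ± 35.1 CPM) and flg22 at 300 min (173 ± 20 CPM), which overlapped, and both lay clear of flg22 at 180 min (46.1 ± 9.76 CPM). Of the 19 pairs of neighbours in each order, the libraries overlapped in 18 for WRKY18, 18 for WRKY40 and 17 for WRKY60. Over the 20 group means of log2 CPM, Pearson's r was 0.8 between WRKY18 and WRKY40, 0.52 between WRKY40 and WRKY60 and 0.39 between WRKY18 and WRKY60. These are descriptions, since the groups share treatments, experiments and depth.

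By this correlation the 5 genes most like each member were picked among 15277 tested genes with at least 5 CPM in 1 group. ERD15 (AT2G41430), a gene of early response to dehydration, was nearest to WRKY18 (r = 0.986), with group means from 419 to 4450 CPM and its highest level also after flg22 at 60 min. AT1G10720, PAO4 (a polyamine oxidase), AT1G75860 and OBE1 followed, with r from 0.97 to 0.985. AT1G32920 was nearest to WRKY40 (r = 0.983), at 14.6 to 796 CPM, and PP2-B13 (a phloem protein homologue), MC8 (a metacaspase), AT5G41740 and AT3G59080 followed with r from 0.973 to 0.98. UCC2 (AT2G44790, a uclacyanin) was nearest to WRKY60 (r = 0.982), at 0.291 to 282 CPM. AT3G18250, AT4G12230 and TRX2 (a thioredoxin) were also among its 5, with r from 0.961 to 0.977, and these 4 genes were highest with flg22+Ed at 300 min, as WRKY60 was.

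Beside the 3 members, 60 other WRKY genes were in the table and 43 of them were tested. After flg22, 14, 16, 23 and 26 of the 43 rose at 60, 120, 180 and 300 min, after Ed 0, 0, 7 and 18, and with flg22+Ed 14, 18, 24 and 33, while 0 fell at any of these times. Among all tested genes 6.45%, 7.43%, 14% and 19.2% rose after flg22, 0.00597%, 0.0835%, 4.03% and 14.7% after Ed, and 4.75%, 9.97%, 18% and 27.9% with flg22+Ed. Without the 4 libraries 14, 0 and 12 of the 43 rose at 60 min after flg22, Ed and flg22+Ed, against 3.75%, 0.00591% and 2.32% of all tested genes. At 300 min 27, 17 and 32 rose and 1 fell, with flg22+Ed, against 20.5%, 13.7% and 29.1% that rose. By an unadjusted edgeR p under 0.05, 4 were higher and 1 lower after Ed at 60 min, and 3 higher and 0 lower at 120 min. The share of all tested genes at this unadjusted threshold is not given, so these counts are not read as a response. After adjustment 0 of the 43 passed at these times. The median log2 fold change of the 43 genes at 300 min was 2.96 for flg22, 1.8 for Ed and 4.22 for flg22+Ed, against -0.05, -0.08 and -0.08 over all tested genes. With genes at 0 counts in a group set to their bound, these medians were 2.25, 1.41 and 4.22. At 300 min WRKY40 and WRKY60 lay above these medians under each treatment, and WRKY18 lay above that for Ed and below the fitted medians for flg22 and flg22+Ed. For flg22 the change of WRKY18, 2.52, lay above the median of 2.25 with genes at their bound.

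Of the other WRKY genes with the largest fitted rises at 300 min, most had 0 counts in Mock, so their fold and rank depend on the prior count and their levels are given. WRKY49, WRKY72 and WRKY9 led after flg22 at 300 min, at 80.7 ± 16.8, 24.4 ± 8.99 and 16.3 ± 10.8 CPM (SD, n = 3), with 0 counts in the 3 Mock libraries. After Ed the same genes were at 0, 0.384 and 0.194 CPM, and WRKY30, WRKY55 and WRKY51 led instead, at 80.9 ± 10.3, 12.9 ± 10.1 and 11.3 ± 13.4 CPM. WRKY55 and WRKY51 had 0 counts in Mock, and WRKY30 had 1. After flg22 WRKY30, WRKY55 and WRKY51 were at 20.7 ± 1.12, 1.2 ± 0.493 and 0.318 ± 0.347 CPM. In the edgeR test of Ed against flg22 at 300 min, WRKY30, WRKY55 and WRKY51 were higher with Ed (adjusted p = 0.0266, 0.000321 and 0.000362), and WRKY49, WRKY72 and WRKY9 were lower (adjusted p = 2.17e-08, 3.21e-07 and 7.97e-06). In this comparison 9.91% of tested genes were called higher and 7.5% lower. The genes were picked for their rises after Ed or flg22 in these same libraries, so their directions partly follow from the choice. These p values therefore add no support. The WRKY51 libraries after Ed ran from 1.74 to 26.7 CPM. With flg22+Ed, WRKY55 (46.5 ± 11.8 CPM), WRKY49 (30.7 ± 14.1 CPM) and WRKY72 (26.4 ± 5.53 CPM) led.

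**Figure D4:**
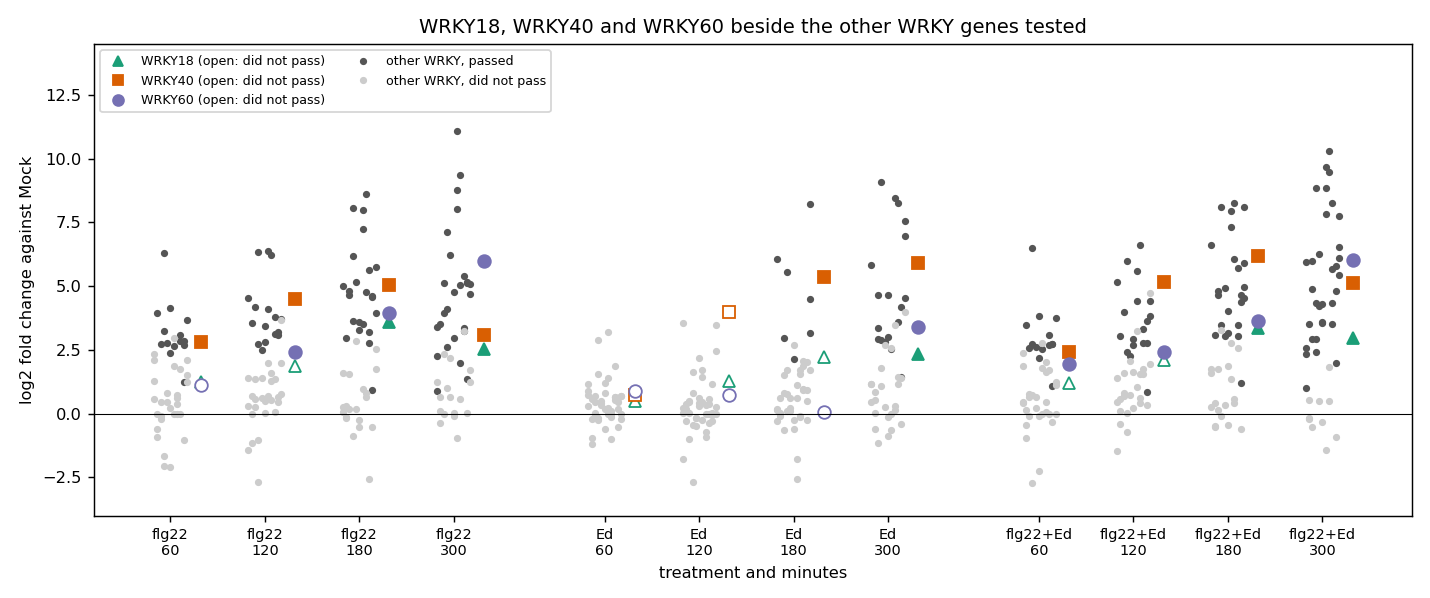
Log2 fold change against Mock (vertical axis) of the 43 other tested WRKY genes (dots, dark where they passed an adjusted p of 0.05) and of WRKY18, WRKY40 and WRKY60 (coloured symbols, filled where they passed) for each treatment and time. After Ed, 0 of the 43 had passed at 60 and 120 min and 18 had at 300 min; values of genes with 0 counts in Mock depend on the prior count.

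The 4 further lists of genes are given at 300 min, where 19.2%, 14.7% and 27.9% of all tested genes rose and 20.9%, 9.46% and 30.5% fell after flg22, Ed and flg22+Ed. Of 19 receptor, kinase and resistance genes, 15 rose after flg22, 17 after Ed and 19 with flg22+Ed, with 0 lower and medians of 1.61, 2.42 and 2.54. These counts were also 15, 17 and 19 without the 4 libraries. FLS2, the flg22 receptor, was 42.8 ± 12.1 CPM after flg22 against 6.77 ± 5.37 CPM in Mock and rose by 2.7 ± 0.91 (adjusted p = 0.0151). MPK3, a mitogen-activated protein kinase of both immune pathways, was 615 ± 139 CPM after Ed against 41.3 ± 12.5 CPM in Mock and rose by 3.9 ± 0.6 (adjusted p = 3.5e-06). RPS2, which senses the action of AvrRpt2, rose by 2.98 ± 0.71 after Ed (adjusted p = 0.00131). MPK11, a related kinase, showed the largest rise of the list with flg22+Ed, by 7.29 ± 0.94 (adjusted p = 1.17e-08), and was 298 ± 166 CPM after Ed against 2.38 ± 0.266 CPM after flg22.

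Of 15 immunity and jasmonate genes linked to WRKY18 and WRKY40 in earlier Arabidopsis work, 14 were tested. After flg22 at 300 min 6 rose and 1 fell, after Ed 9 rose and 0 fell, and with flg22+Ed 10 rose and 2 fell, with medians of 1.27, 4.7 and 4.74. Without the 4 libraries the counts that rose were 4, 9 and 10 and those that fell 2, 0 and 1, where 20.5%, 13.7% and 29.1% of all tested genes rose and 19.5%, 7.98% and 29.8% fell. The list holds AOS and PAD4, which are mutated in these plants, so their transcripts were counted without the normal product. EDS1, a lipase-like defence regulator with a close copy beside it that may share tags, was 187 ± 103 CPM after Ed and 22 ± 6.31 CPM after flg22, against 7.85 ± 1.69 CPM in Mock. PAD3, the last enzyme of camalexin synthesis, was at 0 counts in Mock, 0.895 ± 0.453 CPM after flg22 and 70.4 ± 43.4 CPM after Ed. LOX2, a jasmonate synthesis lipoxygenase, fell by 2.12 with flg22+Ed (adjusted p = 0.00012). ERF109 had 1 to 3 counts per group at 300 min, and JAZ8 was not tested, with 2 counts in the flg22+Ed libraries and 0 in the others.

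Of 15 abscisic acid genes 13 were tested, and at 300 min 3 rose and 2 fell after flg22, 2 rose and 0 fell after Ed, and 4 rose and 4 fell with flg22+Ed, with medians of 0.22, 0.28 and -0.09. The counts that rose are near the shares of all tested genes under each treatment, as are those that fell after flg22 and with flg22+Ed. With the 4 libraries left out, 3, 2 and 4 rose and 6, 1 and 6 fell. In that setting 20.5%, 13.7% and 29.1% of all tested genes rose and 19.5%, 7.98% and 29.8% fell. The counts that fell after flg22 and with flg22+Ed then lay above these shares. PYL6, an abscisic acid receptor, was 28.1 ± 14.6 CPM after flg22, 3.31 ± 0.373 CPM after Ed and 41.4 ± 7.74 CPM with flg22+Ed, against 0.264 ± 0.256 CPM in Mock. CHLH, a subunit of magnesium chelatase in chlorophyll synthesis, fell by 3.44 with flg22+Ed (adjusted p = 4.55e-07). ABI5, a transcription factor of abscisic acid signalling, was at 0.932 to 2.63 CPM in the group means at 300 min and did not pass. ABI4 was not tested, with 0 counts in all groups at 300 min.

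Of 7 mitochondrial stress genes linked to WRKY40, 2 rose and 1 fell after flg22, and 5 rose and 1 fell both after Ed and with flg22+Ed, with medians of 0.75, 2.76 and 2.64. The counts after flg22 are near the shares of all tested genes. With the 4 libraries left out, 2, 5 and 5 rose and 1, 0 and 1 fell. AOX1A, the main stress-induced alternative oxidase, was 90.3 ± 10.8 CPM after flg22, 130 ± 61.6 CPM after Ed and 214 ± 7.94 CPM with flg22+Ed, against 37.7 ± 7.97 CPM in Mock. AOX1D, a further alternative oxidase, was at 0 counts in Mock and after flg22 and reached 5.29 ± 2.54 CPM with flg22+Ed. NDA1, an alternative NADH dehydrogenase, fell by 3.55 with flg22+Ed and by 1.77 without the 4 libraries, with 28.1 to 256 CPM in the 3 Mock libraries at 300 min.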

How the data were processed

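The authors deposited a table of raw read counts per gene for 60 libraries. Libraries were made with Smart-3SEQ, a 3′-end method with a 5-base molecular identifier, per the labels' protocols. Reads lost their first 8 bases and were handled with bcl2fastq 2.17.1.14 and STAR 2.4.2a on TAIR10, per the submitters' processing notes. The sources used here do not give the counting tool, how strand was used, or whether identifiers were collapsed to molecules, and tags of overlapping or antisense genes may be shared. The RefSeq annotation of TAIR10.1 gave symbols for 24888 of 25036 genes.

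Genes were filtered with filterByExpr of edgeR 4.0.16 (R 4.3.3), which left 16763, and scaled with TMM factors (0.803 to 1.15). All 60 libraries in 20 groups entered 1 quasi-likelihood fit with no block and 40 residual degrees of freedom, and p values of 41 contrasts were adjusted by Benjamini and Hochberg over all genes tested, with 0.05 as the threshold. Errors after log2 fold changes are the change divided by the square root of F. CPM use TMM-scaled library sizes, and log2 CPM a prior count of 2. Comparisons with Mock share the Mock libraries. Promoters of 1000 bases were read from TAIR10.1 with its own annotation, and the count table holds no coordinates.

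Replicate numbers mark independent experiments in the series' design text. The residuals of libraries of 1 experiment correlated across genes with a median r of 0.114 over 570 pairs (-0.067 over 1140 pairs from other experiments), so the block by experiment is a paired alternative. Replicate pairs of a group had Spearman correlations of 0.917 to 0.981 across genes, and 0 libraries were identical. The p values of the main fit rest on the spread between libraries within groups, taken over all 20 groups with no term for experiment. They do not measure how an effect varied between experiments.

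Named genes were the 3 members, the 5 genes most like each (1 of them is not reported here), the 3 largest rises among other WRKY genes at 300 min, the largest rise and fall of each list with flg22+Ed at 300 min, and a fixed set (EDS1, ERF109, JAZ8, ABI4, ABI5, AOX1A, FLS2, RPS2, MPK3, CHLH). The members and the lists, written from general knowledge, were chosen with earlier results of these data known. Alternatives were DESeq2 1.42.0 and limma-voom (limma 3.58.1), the block, RLE scaling, scaling by library size only, tests with no filter or with 10 CPM required in 3 libraries, fits to just the groups of a comparison, fits that left out an experiment or a library, and, chosen after the data were seen, the fit without the 4 libraries that stand apart.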

Additional observations from a re-analysis of the deposited data

Results flagged for a closer look

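The log2 response of WRKY60 to flg22 at 300 min differed between leaves with and without Ed. On the log2 scale flg22 gave 5.97 ± 0.54 against Mock and 2.6 ± 0.43 when added to Ed, and the difference of -3.36 ± 0.66 passed the interaction test of edgeR (adjusted p = 0.00307), with the same direction in 3 of 3 experiments. It did not pass without experiment 1 (-3.21, adjusted p = 0.379) or without experiment 2 (-3.3, adjusted p = 0.105), and passed in the other 22 of 24 alternative settings. On the linear scale, flg22+Ed minus the sum of the single responses was 7.53, -22.1 and -49.9 CPM, with no common sign.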

How the results depend on the processing

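The WRKY60 calls against Mock at 180 and 300 min after flg22 and flg22+Ed, and at 300 min after Ed, passed in 18 of 18 alternative settings each, as did those of WRKY40 at 180 min after flg22 and at 300 min after Ed, and those of WRKY18 at 180 min after flg22. With RLE factors 123 of 123 log2 fold changes kept their direction and side of the threshold, and with DESeq2 117 did. Many low counts limit the early calls of WRKY60, and 3 libraries a group limit all of them. Counts of called genes over the whole table moved by over 1.5 times in 25 to 34 of 41 comparisons when 1 experiment was left out, in 23 without the 4 libraries, in 22 with only the groups compared, in 7 with limma-voom, in 6 with DESeq2, in 5 with the block, in 2 with library sizes alone, and in 1 each with RLE factors and with no filter.

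With the replicate block, which pairs libraries by experiment, 1 member passed for Ed against Mock at 120 min (0 without it), 1 for flg22+Ed against flg22 at 300 min (0) and 2 for the interaction at 300 min (1), each change being WRKY40, and the WRKY40 step of flg22+Ed from 120 to 180 min turned from -0.05 to 0.02. The block changed no other call.

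Numbers of members past the threshold moved by over 1.5 times as follows. Against Mock after flg22 at 60 min (1) there were 2 with limma-voom and 0 with only the groups compared or without the 4 libraries, and at 120 min (2) 1 with only the groups compared, while 3, a smaller move, passed without the 4 libraries. Against Mock after Ed at 120 min (0) there was 1 with library sizes alone, with either filter setting, with DESeq2 and without the 4 libraries, and at 180 min (1) 2 with only the groups compared and without the 4 libraries. Against Mock with flg22+Ed at 60 min (2) there were 0 with library sizes alone, with only the groups compared and without the 4 libraries, and 1 with limma-voom. At 120 min (2) 3 passed with DESeq2 and without the 4 libraries, and 2 with only the groups compared, where WRKY18 gained the call and WRKY60 lost it (adjusted p = 0.0315 and 0.0846). In that setting WRKY60 had too few counts to be tested for flg22 at 120 min and flg22+Ed at 60 min. For flg22+Ed against flg22 at 300 min (0) there was 1 with limma-voom, with only the groups compared and without the 4 libraries. For flg22+Ed against Ed there was 1 with DESeq2 at 120 min (0), 2 at 180 min (1) with only the groups compared and without the 4 libraries, and 2 at 300 min (1) with only the groups compared. For Ed against flg22 there was 1 at 60 min (0) with limma-voom, with only the groups compared and without the 4 libraries, 1 at 120 min (0) with DESeq2 and with only the groups compared, and 2 at 180 min (1) with only the groups compared and without the 4 libraries. For the interaction at 180 min (0) there were 2 with only the groups compared and 1 without the 4 libraries, and at 300 min 3 with only the groups compared. For Mock against untouched at 60 min (1) there were 0 with only the groups compared and 2 without the 4 libraries, which gave 1 each at 120 and 180 min (0). For the step from 60 to 120 min the flg22 count (1) fell to 0 with library sizes alone, no filter and limma-voom, and the Ed and flg22+Ed counts (0) became 1 with DESeq2, with only the groups compared and without the 4 libraries. For flg22 from 180 to 300 min (1) there were 2 with only the groups compared. Apart from WRKY60 being left out by the filter with only the groups compared, the cause of these moves was not tested.

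When 1 experiment or 1 library was left out, the number of members past the threshold ranged from 0 to 1 for flg22 against Mock at 60 min, Ed against Mock at 120 min, Ed against flg22 at 120 min, the interaction at 180 min, Mock against untouched at 120 and 180 min, the step from 60 to 120 min after flg22 and after Ed, and the step from 180 to 300 min after flg22. It ranged from 0 to 2 for flg22 against Mock at 120 min, Ed against Mock at 180 min, flg22+Ed against Mock at 60 min, the interaction at 300 min and Mock against untouched at 60 min, from 1 to 3 for flg22 and for flg22+Ed against Mock at 300 and 120 min, and from 1 to 2 for Ed against flg22 at 300 min.

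Of the 5 genes most like WRKY18, 3 were shared with those found by Spearman's rho. For WRKY40 1 was shared by rho, 3 over the 60 libraries and 3 with a prior count of 0.5, and for WRKY60 1, 3 and, with a prior count of 5, 2.

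Directions turned only among log2 changes that did not pass. Without the 4 libraries WRKY18 became -0.09 for Ed against Mock at 60 min, 0.04 for the interaction at 60 min, and 0.17 and 0.67 for Mock against untouched at 180 and 300 min (0.09 at 300 min with limma-voom). WRKY60 became -0.04 for flg22+Ed against flg22 at 300 min with library sizes alone, and 0.05 (library sizes alone) and 0.08 (limma-voom) for the interaction at 60 min, and WRKY40 0.06 for flg22+Ed from 120 to 180 min with limma-voom. With 1 experiment or library left out, WRKY18 ranged from -0.09 to 0.92 for Ed against Mock at 60 min, from -0.64 to 0.27, -0.31 to 0.68 and -0.53 to 0.02 for flg22+Ed against flg22 at 60, 120 and 180 min, from -1.58 to 0.02 and -0.5 to 0.06 for Ed against flg22 at 120 and 300 min, and from -0.97 to 0.04 for the interaction at 60 min. It ranged from -1.02 to 0.29 and -0.72 to 0.66 for Mock against untouched at 180 and 300 min, from -0.16 to 0.42 and -1 to 0.27 for flg22 and Ed from 120 to 180 min, and from -0.22 to 0.29 for flg22+Ed from 180 to 300 min. WRKY40 ranged from -1.04 to 0.11 and -0.12 to 1.13 for flg22+Ed against flg22 at 60 and 120 min, from -1.81 to 0.08 and -0.21 to 0.61 for Ed against flg22 at 120 and 180 min, from -1.93 to 0.38 for Mock against untouched at 120 min, from -0.7 to 0.48 for flg22 from 60 to 120 min, and from -0.35 to 1.55 and -0.35 to 0.41 for Ed and flg22+Ed from 120 to 180 min. WRKY60 ranged from -0.67 to 1.01 for Ed against Mock at 180 min, from -0.18 to 0.33 and -0.15 to 0.19 for flg22+Ed against flg22 at 120 and 300 min, from -0.84 to 0.28 for Ed against flg22 at 60 min, from -0.58 to 0.69 and -1.26 to 0.35 for the interaction at 60 and 180 min, from -2.25 to 0.43 for Mock against untouched at 120 min, and from -0.11 to 0.78 for flg22 from 60 to 120 min.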

Other observations

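The 4 libraries of experiment 2 that stand apart resembled other classes of untouched and Mock libraries in 13 clock genes, as a description by Pearson's r against each class. The library labelled Mock at 0 min was nearest to Mock at 60 min (r = 0.99, against 0.81 for untouched), and its WRKY18 level was 384 CPM. The libraries labelled Mock at 60 and 300 min were both nearest to untouched (r = 1 each, against 0.86 and -0.15 for their own class), with WRKY18 at 7.56 and 14.2 CPM. The library labelled flg22 at 0 min was nearest to Mock at 300 min (r = 0.96, against -0.17 for untouched), with WRKY18 at 13.1 CPM. These values share depth and experiment, and no library was moved to another group.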
